A study of Mus musculus with 6 samples.

Results

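The genes described here are 10 genes of axon-glia contact and of the node of Ranvier: L1cam, Nfasc, Nrcam, Chl1, Cntn1, Cntnap1, Cntnap2, Gldn, Ank3 and Cadm4. They were taken by symbol from a count table of 45703 genes, and all 10 were found. RNA sequencing had been done on 6 replicate primary cultures of dorsal root ganglia, small organs next to the spinal cord that house the cell bodies of sensory neurons together with glia. The mice were wild-type C57BL/6 animals aged 4 to 6 weeks. The dissociated cells had grown for 7 days on poly-L-lysine in medium containing 10% fetal calf serum and the growth factors EGF and FGF, each at 10 ng/ml, and RNA from 2 dishes was taken for each sample. There was 1 group, with no untreated or intact ganglion beside it, and the labels do not say whether each replicate came from different animals, so every spread below is that between these 6 samples.

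At a node of Ranvier, sodium channels of a myelinated axon are held in a short gap between stretches of myelin. Ankyrin-G, the product of Ank3, anchors the channels and the cell adhesion molecules neurofascin (Nfasc) and NrCAM (Nrcam) to the spectrin skeleton, and gliomedin (Gldn), which Schwann cells secrete, binds both of these on the axon. Beside the node lies the paranode, where axonal contactin-1 (Cntn1) and Caspr (Cntnap1) meet a glial form of neurofascin. Next to it, Caspr2 (Cntnap2) gathers potassium channels, and along the internode the Schwann cell protein Cadm4 faces axonal partners of its own family. L1cam and Chl1 belong to the same family as Nfasc and Nrcam and are known from axons and from Schwann cells that do not form myelin. A sequencing count per gene covers all of its transcripts, so glial and neuronal forms of neurofascin could not be separated.

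The libraries held 20070639 to 22968642 counts. Levels are given as CPM, the count of a gene scaled to the total of its library. Levels of different genes are compared as CPM per kb of the combined length of their exons, unless another length or none is named. Replicates 1 and 5 were the extremes in the markers of several other cell types. The summed level of 6 fibroblast markers, all 6 of them above 1 CPM in every library, was lowest in replicate 1, at 3338 CPM, and reached 13967 CPM in replicate 5. The summed level of 6 macrophage markers ran from 11.5 to 104.9 CPM and that of 5 endothelial markers from 6.44 to 102 CPM between the same libraries, with 4 of 6 and 1 of 5 markers above 1 CPM throughout and the endothelial gene Cldn5 without a count in replicates 2, 3 and 6. The summed level of 10 neuron markers was lowest in replicate 5 (1013 CPM) and highest in replicate 3 (2181 CPM), and that of 8 markers of the peripheral glial lineage was lowest in replicate 5 (5349 CPM) and highest in replicate 1 (7638 CPM). All 10 neuron markers and all 8 glial markers were above 1 CPM in every library. The summed level of 6 myelin markers was lowest in replicate 5 (1832 CPM) and highest in replicate 2 (4745 CPM). That of 6 satellite glia markers, 5 of them above 1 CPM throughout, was lowest in replicate 5 (1664 CPM) and highest in replicate 3 (2657 CPM).

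All 10 genes were detected, with at least 1 CPM in each of the 6 libraries. The same held for 30.4% of all genes of the table and for 55.8% of its protein-coding genes. The smallest count behind any value was 152, that of Cntnap2 in replicate 5. Per kb of combined exon length, their levels fell into separate tiers (the plot of levels by culture). Cadm4, L1cam, Chl1 and Gldn averaged 90.2 to 761 CPM per kb, Nrcam 20.9 and Ank3 10.1 CPM per kb, and Cntn1, Cntnap1, Cntnap2 and Nfasc 0.753 to 2.35 CPM per kb. The place of Ank3 depended on that length. With no division by length it averaged 460 CPM, above Gldn at 419 CPM, though Gldn was the higher of the pair in replicate 5. The median of the 10 genes was 15.5 CPM per kb, and that of the 14998 genes kept by a filter on low counts was 7.2 CPM per kb.

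**Figure D1:**
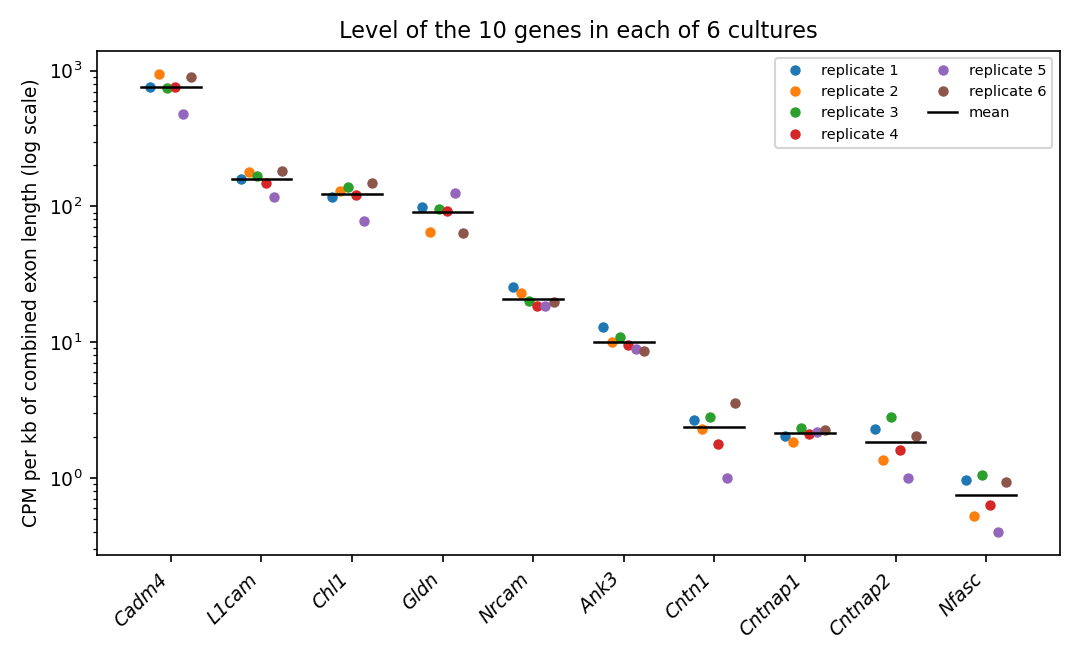
The level of each gene in CPM per kb of combined exon length (vertical axis, log scale) is plotted for 6 cultures, with 1 coloured point per replicate and a black line at the mean. Cadm4 stands highest at 761 CPM per kb and Nfasc lowest at 0.753 CPM per kb, and replicate 5 is the lowest point for Cadm4, L1cam, Chl1, Cntn1, Cntnap2 and Nfasc but the highest for Gldn.

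The 4 members of the L1 family share a short stretch in the last coding exon by which these proteins are known to bind ankyrins, and it is shown because it ties the family to Ank3. Each gene's longest coding region in GENCODE M21 (GRCm38) held 1 place with codons for phenylalanine, isoleucine, glycine, any residue and tyrosine in a row. Those 15 bases are in capitals, with 15 bases on either side, 5′ to 3′ on the coding strand.
L1cam (minus strand, chrX:73855107-73855151, exon 29 of 29): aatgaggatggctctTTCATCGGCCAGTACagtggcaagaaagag
Nfasc (minus strand, chr1:132570492-132570536, exon 32 of 32): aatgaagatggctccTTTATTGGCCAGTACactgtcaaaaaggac
Nrcam (plus strand, chr12:44598471-44598515, exon 31 of 31): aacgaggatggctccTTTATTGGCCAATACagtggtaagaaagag
Chl1 (plus strand, chr6:103729234-103729278, exon 27 of 27): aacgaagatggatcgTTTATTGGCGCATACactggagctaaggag
With positions counted from 1 at the first capital and L1cam as the reference, Nfasc differed by C3T and C6T. Nrcam differed by C3T, C6T and G12A. Chl1 differed by C3T, C6T, C10G, A11C and G12A, and 3 of these changes lie in the fourth codon.

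L1cam (NCBI gene 16728, chromosome X, 73853778 to 73880838, GRCm38.p6), which binds itself and other adhesion molecules across cells, was the second highest of the 10 genes per length. Its lowest, median and highest values were 617, 862 and 962 CPM, with a mean of 840.3 ± 128 CPM (SD, n = 6). Replicate 5 was the lowest, and the other libraries lay between 789 and 962 CPM. Chl1 (NCBI gene 12661, chromosome 6, 103510584 to 103733038), the close homologue of L1, had its lowest value of 687 CPM in replicate 5 and its highest of 1291 CPM in replicate 6, with a median of 1098 and a mean of 1070.2 ± 211 CPM (SD, n = 6). Its other libraries all lay at 1032 CPM or above, and replicate 5 stood below them. Nrcam (NCBI gene 319504, chromosome 12, 44328786 to 44605194), which serves at the node on both the axonal and the glial side, varied less, with 273, 298 and 383 CPM as lowest, median and highest value. Replicate 1 held the highest Nrcam value, and replicates 4 and 5 the lowest. Nfasc (NCBI gene 269116, chromosome 1, 132564690 to 132741848) was the scarce member of the family, at 7.70, 15.2 and 20.4 CPM. It split the cultures into 3 with 18.2 to 20.4 CPM (replicates 1, 3 and 6) and 3 with 7.70 to 12.2 CPM (replicates 2, 4 and 5).

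Set against the summed CPM per kb of the family, L1cam held 52.5% ± 1.35 and Chl1 40.2% ± 2.30, Nrcam 7.01% ± 1.24 and Nfasc 0.245% ± 0.0690 (SD, n = 6). The share of Nfasc was at most 0.322% in any culture. The split between L1cam and Chl1 depended on the length used. Per kb of the longest GENCODE coding region, a length chosen once values were known, Chl1 led with 48.6% against 36.9% for L1cam, and Nrcam rose to 13.9%. The share of Nfasc stayed under 1% with each length tried, and at 0.642% with no length at all.

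**Figure D2:**
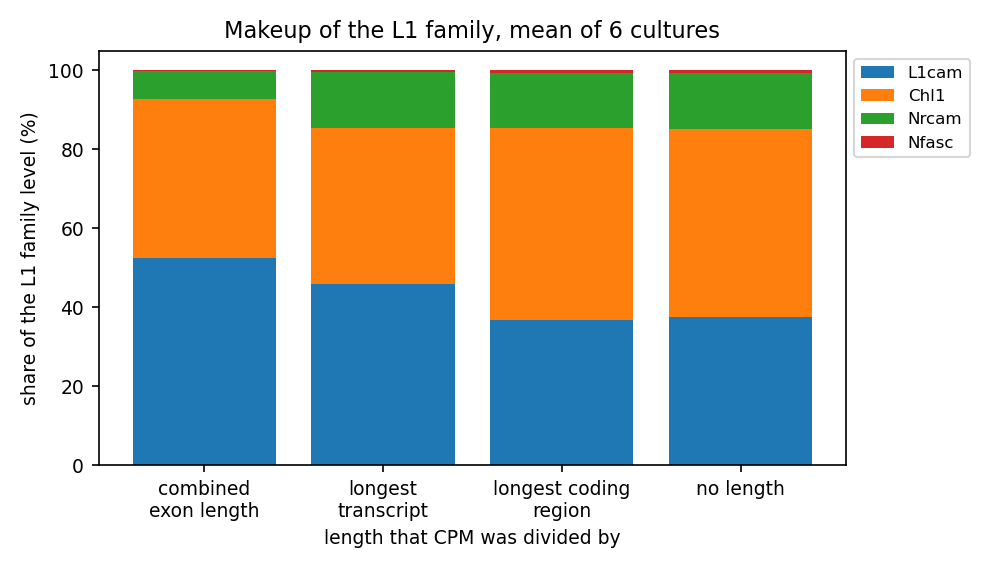
The share of the summed L1 family level (vertical axis, percent) held by L1cam, Chl1, Nrcam and Nfasc, as the mean of 6 cultures, is stacked for 4 choices of the length that CPM was divided by (horizontal axis). L1cam and Chl1 together fill most of each bar, with L1cam at 52.5% by combined exon length and at 36.9% by coding length, and Nfasc is a thin line at the top.

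Ank3 (NCBI gene 11735, chromosome 10, 69533486 to 70027436), the scaffold of the node and of the axon's initial segment, had 389, 442 and 585 CPM as lowest, median and highest value. The highest was that of replicate 1 and the lowest that of replicate 6. Its combined exon length of 45486 bases, the sum over many alternative exons, made its level per length only 10.1 ± 1.57 CPM per kb (SD, n = 6). Per kb of its longest GENCODE coding region it was 77.2 CPM per kb, close to the 82.5 CPM per kb of Nrcam on that scale. That region of Ank3 held 5955 bases, while the count also took in reads from exons outside it.

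Gldn (NCBI gene 235379, chromosome 9, 54286486 to 54341777), the glial ligand of the nodal adhesion molecules, averaged 419 ± 108 CPM (SD, n = 6). Its order over the cultures was unlike that of the other abundant genes, with the highest value in replicate 5 (583 CPM) and the lowest in replicates 6 (295 CPM) and 2 (303 CPM). Replicates 1, 3 and 4 lay between 429 and 461 CPM. Per length, Gldn exceeded the gene totals of Nrcam and Nfasc, which cover glial and axonal forms alike, in every library. The ratio of Gldn to Nrcam in CPM per kb ran from 2.85 to 6.82, and that of Gldn to Nfasc from 67.5 to 315.

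Cadm4 (NCBI gene 260299, chromosome 7, 24482023 to 24504533), the nectin-like protein of the Schwann cell internode, was the highest of the 10 genes at 761 ± 161 CPM per kb (SD, n = 6), above 99.9% of the 12812 protein-coding genes that passed the filter. In CPM it ran from 1038 in replicate 5 to 2042 in replicate 2, with a median of 1625. Replicates 1, 3 and 4 were close together, between 1594 and 1629.6 CPM. Within its family of 4 it took 91.3% ± 1.25 of the summed CPM per kb (SD, n = 6). Cadm1 took 4.34%, Cadm2 2.72% and Cadm3, which is known from axons, 1.65%. These shares depend on combined exon lengths of 2155 bases for Cadm4 and of 14137, 9806 and 7183 for Cadm1, Cadm2 and Cadm3. With no division by length, Cadm4 was still the highest, at a mean of 1640 CPM. The means of Cadm1, Cadm2 and Cadm3 were then 497, 222 and 98.6 CPM.

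The paranodal and juxtaparanodal genes were all in the lowest tier. Cntn1 (NCBI gene 12805, chromosome 15, 92051152 to 92341967), a lipid-anchored adhesion molecule of the immunoglobulin class, had 11.6, 28.5 and 41.4 CPM as lowest, median and highest value, the lowest in replicate 5 and the highest in replicate 6. Cntnap1 (NCBI gene 53321, chromosome 11, 101174617 to 101190724), its partner Caspr, had 12.8, 15.1 and 16.4 CPM and hardly moved between cultures. Cntnap2 (NCBI gene 66797, chromosome 6, 45060061 to 47301393) had 7.26, 13.2 and 20.5 CPM, lowest in replicate 5 and highest in replicate 3. A pseudogene inside the Cntnap2 locus on the other strand, Rbpj-ps3, was counted at 17.2 CPM, and the strand setting of the counting is not given in the sources used here. Its part in the Cntnap2 count was not tested.

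Differences in level between the 10 genes were tested for all 45 pairs within libraries, as differences of log2(CPM per kb + 0.1), by exact permutation of the signs of the 6 differences (two-sided, smallest possible p 0.0312). Of the 45 pairs, 40 passed with adjusted p = 0.0352 and had the same order in 6 of 6 libraries. Among neighbours in the order, Cadm4 exceeded L1cam by 2.24 ± 0.131, Gldn exceeded Nrcam by 2.08 ± 0.461 and Ank3 exceeded Cntn1 by 2.14 ± 0.588 (log2, SD, n = 6). Chl1 and Gldn did not differ beyond their spread (0.45 ± 0.663, higher in 5 of 6 libraries, exact permutation p = 0.188, adjusted 0.196). The same was true of Cntn1 and Cntnap1 (0.047 ± 0.611, 4 of 6 libraries, exact permutation p = 0.875, adjusted 0.875) and of Cntnap1 and Cntnap2 (0.27 ± 0.477, 4 of 6 libraries, exact permutation p = 0.281, adjusted 0.288). The remaining pairs that missed the threshold were L1cam with Gldn and Cntn1 with Cntnap2 (adjusted exact permutation p = 0.0670 each, 5 of 6 libraries).

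Of the steps between neighbours that passed the test, 4 depended on the scale. L1cam over Chl1, Nrcam over Ank3 and Cntnap2 over Nfasc depended on the length chosen, and Gldn over Nrcam no longer passed with no division by length (0.40, exact permutation, adjusted p = 0.134). L1cam exceeded Chl1 by 0.39 ± 0.117, which became -0.39 per kb of the longest coding region. That reverse order passed the test as well (exact permutation, adjusted p = 0.0361). Nrcam exceeded Ank3 by 1.04 ± 0.131, which shrank to 0.10 per kb of coding region and 0.11 per kb of the longest transcript and no longer passed (exact permutation, adjusted p = 0.171 and 0.0938). Cntnap2 exceeded Nfasc by 1.18 ± 0.102, which became -0.092 and -0.12 by those 2 lengths (log2, SD, n = 6). The reverse order did not pass per kb of coding region but passed per kb of the longest transcript (exact permutation, adjusted p = 0.0703 and 0.0343). In the other direction, Cntn1 exceeded Cntnap1 by 1.18 per kb of coding region, and Cntnap1 exceeded Cntnap2 by 1.02 per kb of the longest transcript, and both differences then passed (exact permutation, adjusted p = 0.0361 and 0.0343). The 4 genes of the lowest tier stayed below the other 6 under each of these lengths.

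Variation between the cultures exceeded counting noise for 9 of the 10 genes, against 76.3% of the 14998 genes tested (chi-square test, Benjamini-Hochberg adjusted over all of them). The exception was Cntnap1, with counts of 281 to 356 and an adjusted p of 0.133 in that test. The other 9 passed with every single replicate left out. Scaled by library totals alone, Cntnap1 passed as well. Against the spread of genes of similar abundance, in edgeR's quasi-likelihood fit, 0 of the 10 genes and 0 of 14998 passed. In that fit 1 of the 10, Cntn1, and 809 of all genes had an unadjusted p under 0.05. The spread used as reference there was estimated from these same genes, so few could pass. The 0 therefore does not bear on whether the cultures differed. The relative spread beyond counting noise, which edgeR gives as a biological coefficient of variation, was highest for Cntn1 (0.358), Nfasc (0.330) and Cntnap2 (0.321). These values lay above those of 93.7%, 92.2% and 91.5% of the tested genes. It was 0.135 for Cntnap1, 0.151 for Nrcam, 0.159 for Ank3 and 0.171 for L1cam, where the median over all tested genes was 0.153.

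The spread of the 10 genes was set beside that of marker genes, since the cultures mixed neurons, glia and other cells (the plot of deviations by culture). In bulk RNA, fewer cells of a type and less RNA per cell cannot be told apart. Nfasc and Cntnap2 had the same order over the 6 cultures as the neuron list score, the mean log2 level of 10 neuron markers such as Tubb3, Stmn2 and Prph. For Nfasc, Pearson's r with that score was 0.945 (exact permutation p = 0.00139, adjusted 0.0417 over 30 relations) and Spearman's rho was 1.00, with an exact permutation p of 0.00278 and an adjusted p of 0.0417. For Cntnap2, r was 0.962 (exact permutation p = 0.00417, adjusted 0.0625) and rho was 1.00, with the same p as for Nfasc. When replicates 2 and 5 were left out, whose scores lay farthest from the median, r was 0.826 and 0.964. Cntn1, with r = 0.699 and rho = 0.771, did not pass (exact permutation p = 0.117 and 0.103, adjusted 0.232 and 0.440), and r was 0.486 without those libraries. For Cntnap1, r was 0.590 and rho 0.429 (exact permutation p = 0.221 and 0.419, adjusted 0.315 and 0.649).

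**Figure D3:**
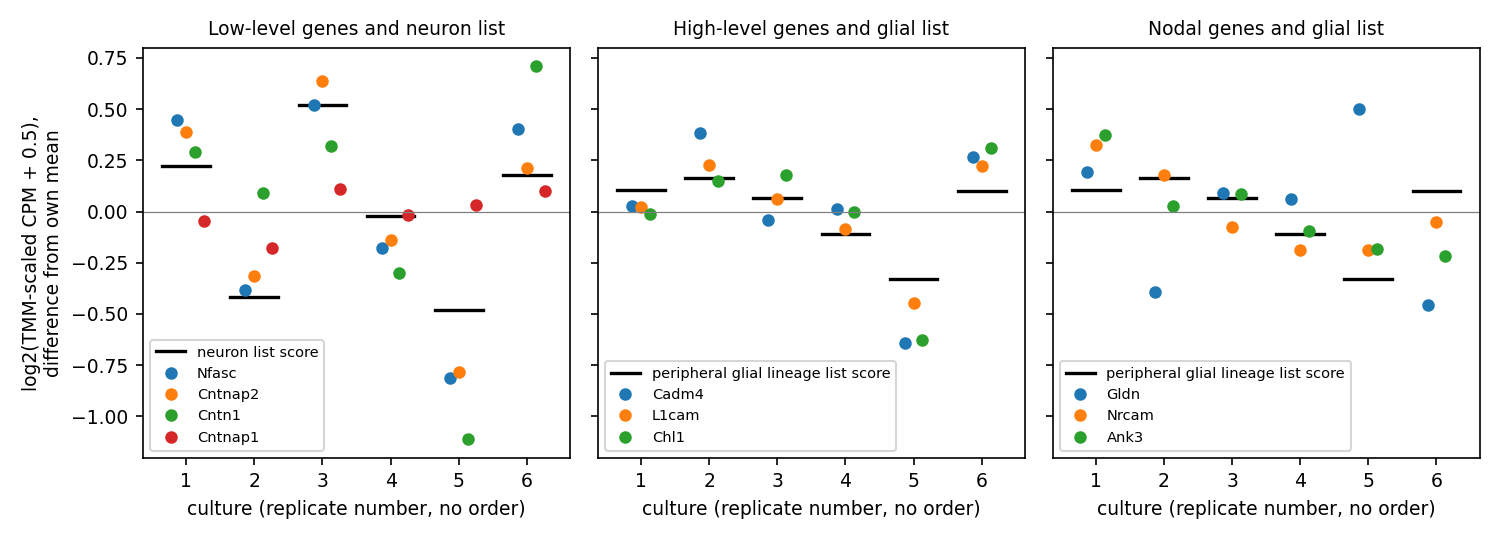
For each culture (horizontal axis, replicate number), points give the difference of a gene's log2(TMM-scaled CPM + 0.5) from its own mean over 6 cultures (vertical axis), and black bars give the same for the score of the marker list named in the legend. Nfasc and Cntnap2 sit at -0.81 and -0.78 in replicate 5 and at 0.52 and 0.64 in replicate 3 with the neuron score, Cadm4 and Chl1 fall to -0.64 and -0.63 in replicate 5, and Gldn is at 0.50 there.

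Relations with the glial score, the mean log2 level of 8 markers such as Sox10 and Erbb3, did not pass the correction for any of the 10 genes. L1cam had r = 0.959 and rho = 0.829 (exact permutation p = 0.00972 and 0.0583, adjusted 0.0972 and 0.292), and r was 0.617 without replicates 4 and 5, those farthest from the median of that score. Cadm4 had r = 0.909 and rho = 0.886 (exact permutation p = 0.0167 and 0.0333, adjusted 0.125 and 0.200), and r was 0.847 without those libraries. For Chl1 r was 0.889 and rho 0.371 (exact permutation p = 0.0403 and 0.497, adjusted 0.151 and 0.649), and r turned to -0.122 without them, so that relation rests on those libraries. The scarce Cntn1 had r = 0.905 and rho = 0.486 with the glial score (exact permutation p = 0.0278 and 0.356, adjusted 0.151 and 0.627), and r turned to -0.507 without the same libraries. Gldn had the opposite sign, with r = -0.756 and rho = -0.486 (exact permutation p = 0.103 and 0.356, adjusted 0.220 and 0.627) and r = -0.557 without them. Against the score of the 6 fibroblast markers, the strongest values of r were those of Nrcam and Cntn1, -0.840 and -0.839 (exact permutation p = 0.0306 and 0.0389, adjusted 0.151 each), with rho of -0.886 and -0.714 (exact permutation p = 0.0333 and 0.136, adjusted 0.200 and 0.454). Without replicates 1 and 5 these values of r were -0.590 and -0.893. Nfasc and Cntnap2 had r of -0.796 and -0.761 with the fibroblast score (exact permutation, adjusted p = 0.220 each). Their r with the glial score was 0.681 and 0.675 (exact permutation, adjusted p = 0.232 each). It turned to -0.942 and -0.974 without replicates 4 and 5. The labels give no batch of culture or sequencing, which leaves no batches to recompute these values in, and the part of the other cell types in these relations was not tested.

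**Figure D4:**
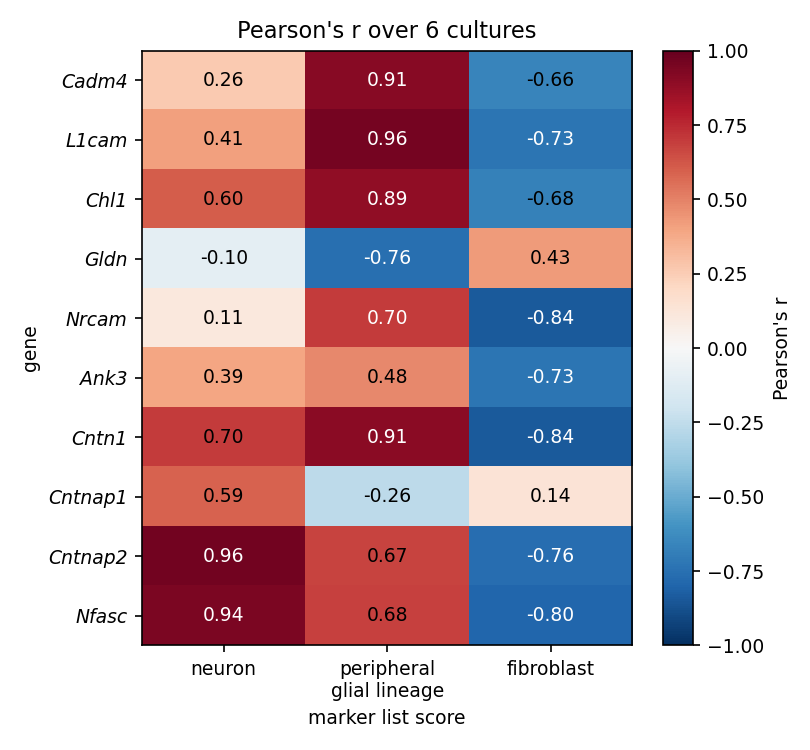
Pearson's r between each gene (rows, ordered by level) and the score of 3 marker lists (columns) over 6 cultures is shown as a number and a colour, red for positive and blue for negative. The highest values with the neuron score are 0.962 for Cntnap2 and 0.945 for Nfasc, those with the glial score 0.959 for L1cam and 0.909 for Cadm4, and Gldn is negative with the glial score at -0.756.

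Each level was also divided by the summed markers of the same library, as a description with no test. Alone, Cntnap2 varied 2.82-fold between its lowest and highest culture, and relative to the summed neuron markers 1.31-fold. Nfasc varied 2.65-fold alone and 1.45-fold relative to the neuron markers, while the neuron sum itself varied 2.15-fold. Cntn1 narrowed too, from 3.58-fold alone to 2.19-fold. Against the glial sum the ranges of Nfasc, Cntnap2 and Cntn1 also narrowed, but less, to 2.21-fold, 2.28-fold and 2.95-fold. Relative to the summed glial markers, which varied 1.43-fold, the range of Nrcam narrowed from 1.40-fold to 1.13-fold and that of Ank3 from 1.5-fold to 1.28-fold. L1cam narrowed from 1.56-fold to 1.35-fold and Cadm4 from 1.97-fold to 1.52-fold. With the glial score, r was 0.703 for Nrcam and 0.482 for Ank3, and neither passed (exact permutation, adjusted p = 0.220 and 0.513). Without replicates 4 and 5 these values of r were 0.524 and -0.062. Gldn and Cntnap1 widened against both lists, Gldn from 1.97-fold to 3.22-fold and 2.62-fold and Cntnap1 from 1.28-fold to 2.02-fold and 1.64-fold.

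**Figure D5:**
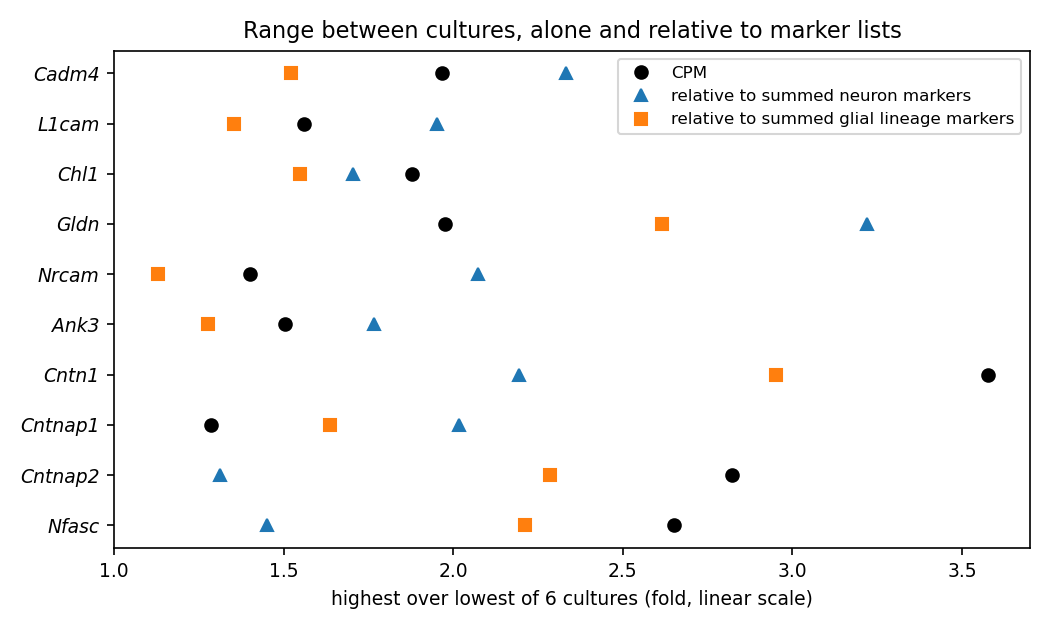
The ratio of the highest to the lowest of 6 cultures (horizontal axis, linear fold) is plotted for each gene (rows) in CPM (black circles), relative to the summed neuron markers (triangles) and relative to the summed glial lineage markers (squares). The neuron triangle lies left of the circle for Nfasc (1.45 against 2.65) and Cntnap2 (1.31 against 2.82), and the glial square lies left of it for Nrcam (1.13 against 1.40).

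Among themselves, 45 pairs of the 10 genes were compared across the cultures, and none passed the correction. The closest pair was Nfasc with Cntnap2 (r = 0.980, exact permutation p = 0.00139, adjusted 0.0625; rho = 1.00, exact permutation p = 0.00278, adjusted 0.125; r = 0.918 without replicates 2 and 5). Gldn ran against Cadm4 (r = -0.912, exact permutation p = 0.0153, adjusted 0.0972; rho = -0.771, exact permutation p = 0.103, adjusted 0.514; r = -0.942 without replicates 2 and 6). Beyond the 10 genes, likeness was measured as r over the 6 cultures among 11923 genes that passed the filter with at least 5 CPM, and the 2 most alike are named for each. With so many genes and 6 points, values near 1 are reached easily, so the names are a description. They were Syn1 and Rundc3a for Cntnap2, Tagln3 and Med12l for Nfasc, and Fggy and Prkcq for Cntn1. For Cadm4 they were Kcnh2 and Emc8, for L1cam Polr2j and Rasa3, and for Chl1 Cd59a and Ttc30b. Rgs2 and Nkain1 were closest to Gldn, Zfp704 and Smim14 to Nrcam, Tiprl and Vkorc1l1 to Cntnap1, and 9430041J12Rik and Mkrn1 to Ank3. The 20 values of r lay between 0.989 and 0.999.

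The promoters of Cadm4, Chl1 and Gldn are shown because the first 2 had their lowest value in replicate 5, where Gldn had its highest. RefSeq (GRCm38.p6) gave promoter windows for 8 of the 10 genes. Each sequence covers the 250 bases before a start site in that table, 5′ to 3′ on the gene's strand, which is the plus strand for all 3. The start used for Cadm4 and Gldn is the first base of the gene's span, while that of Chl1 lies inside the span, so that the Chl1 window is within the annotated gene. Capitals mark the GC box GGGCGG and the SOX core ACAAAG or ACAATG on either strand, and the 2 kinds of motif do not overlap here.
Cadm4 (chr7:24481773-24482022): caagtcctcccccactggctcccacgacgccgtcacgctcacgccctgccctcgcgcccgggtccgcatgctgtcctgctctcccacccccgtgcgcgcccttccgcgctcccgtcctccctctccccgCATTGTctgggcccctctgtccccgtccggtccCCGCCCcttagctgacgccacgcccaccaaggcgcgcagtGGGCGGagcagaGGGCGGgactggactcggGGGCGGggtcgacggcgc
Chl1 (chr6:103510626-103510875): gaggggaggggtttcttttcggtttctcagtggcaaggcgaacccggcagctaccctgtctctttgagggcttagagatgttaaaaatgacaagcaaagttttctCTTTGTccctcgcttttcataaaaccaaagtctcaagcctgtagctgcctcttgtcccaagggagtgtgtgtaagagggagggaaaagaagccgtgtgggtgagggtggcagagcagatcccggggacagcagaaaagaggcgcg
Gldn (chr9:54286236-54286485): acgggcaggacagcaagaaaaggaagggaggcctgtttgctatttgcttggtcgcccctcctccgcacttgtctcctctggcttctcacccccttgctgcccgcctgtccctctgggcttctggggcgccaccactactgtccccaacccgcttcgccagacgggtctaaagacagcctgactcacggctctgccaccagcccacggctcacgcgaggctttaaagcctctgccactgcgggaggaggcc
The Cadm4 window held 4 GC boxes and 1 SOX core, that of Chl1 no GC box and 1 SOX core, and that of Gldn neither. L1cam, Nfasc, Cntn1 and Cntnap2 were lowest in replicate 5 as well. The L1cam and Nfasc windows held no SOX core, and Cntn1 and Cntnap2 each had a SOX core in only 1 of their windows. Any link between these motifs and the levels was not tested. Of 32851 promoter windows of this length, 32.7% held a GC box and 25.2% a SOX core. The Cadm4 window was rich in CG dinucleotides, with 30, against 8 for Chl1, 13 for Gldn and a median of 6 over all windows.

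The wider machinery of the node and of axon-glia contact was measured on 4 lists. Of 17 genes of the nodal skeleton, the Schwann cell microvilli and the nodal matrix, 16 were detected and 16 varied beyond counting noise, with a median of 29.1 CPM per kb. Over all genes, 55.8% of the protein-coding ones were detected and 76.3% of those tested varied, and the counts of this list and the next 3 stand beside those shares. The highest were Dag1, the laminin receptor dystroglycan (376 ± 47.7 CPM per kb), and the membrane-actin linkers Msn (303 ± 38.2) and Ezr (143 ± 24.0 CPM per kb; SD, n = 6 each). Hapln2, a link protein of nodal matrix, had at most 3 counts in every library. Of the 10 partners at the paranode and juxtaparanode, all 10 were detected and all 10 varied, with a median of 11.2 CPM per kb. Kcna2 and Kcna1, the potassium channel subunits of the juxtaparanode, were the highest at 66.9 ± 10.2 and 55.9 ± 8.98 CPM per kb, followed by Epb41l2, a band 4.1 protein, at 35.8 ± 3.24 CPM per kb (SD, n = 6). Both channel genes stood far above Cntnap2, at 1.85 ± 0.661 CPM per kb (SD, n = 6), whose product is known to gather these channels.

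All 12 genes of the internodal and other axon-glia adhesion list were detected and all 12 varied (76.3% of all tested genes did), with a median of 36.9 CPM per kb. The integrin subunits Itgb1 (545 ± 21.8 CPM per kb) and Itga6 (104 ± 28.6 CPM per kb) and Lgi4, a secreted Schwann cell factor needed for myelination (236 ± 49.0 CPM per kb), were the highest (SD, n = 6). The further contactins and contactin-associated proteins were scarce, with 2 of 10 detected and a median of 0.0697 CPM per kb. Cntn2, the juxtaparanodal partner of Caspr2, reached 3.37 ± 1.24 CPM per kb, Cntnap3 0.371 ± 0.141 and Cntnap4 0.319 ± 0.144 CPM per kb (SD, n = 6). Cntn1, at 2.35 ± 0.892 CPM per kb (SD, n = 6), was in the range of Cntn2, and the other contactins measured were each below both. Of the 4 genes of that list that passed the filter on low counts, 3 varied beyond counting noise.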

How the data were processed

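RNA was sequenced from 6 cultures. Per the labels' protocols, 500 ng of RNA per sample (integrity number 8.7 or higher) went into a stranded TruSeq kit with poly-A capture and 15 cycles of PCR. The authors deposited unscaled estimated counts per gene. Between 13.4% and 14.7% of the values of a library were not whole numbers, and 7 of the 10 genes had such a value in at least 1 library. Per the submitters' processing notes, bcl2fastq 2.20.0.422, cutadapt 2.5, STAR 2.7.2b, featureCounts 1.6.4 and the build GRCm38.p6 were used. Their settings, including strand and multi-matching reads, are not given in the sources used here. The table had 0 further columns of per-sample values, and all 10 start positions equalled RefSeq's.

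Counts were rounded and filtered with filterByExpr in edgeR 4.0.16 (R 4.3.3), and TMM scaling served the chi-square test and the relations. Simulated counts of 14924 genes had changes placed in genes with a mean of at least 100 counts. On them that test recovered 100 of 100 at 1.5-fold and 100 of 100 at 2-fold, with 11 other calls. Apart from the placed changes, the simulated replicates differed by counting noise alone. Recovery amid the wider spread of real cultures was not tested. DESeq2 1.42.0 size factors, other pseudocounts, filters, roundings and lengths, and each replicate left out were tried. List scores were means of log2(CPM + 0.5). Named genes were all members, the 3 highest and the undetectable genes (at most 3 counts) of each list, list markers, and the 2 genes most alike each member; others were chosen after their values were seen. The genes and lists were chosen with earlier results of these data known.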

Additional observations from a re-analysis of the deposited data

How the results depend on the processing

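The test of variation called 11444 genes and 9 of the 10 genes described. Leaving out each replicate gave 10098 to 11253 genes and 9 of the 10 throughout. Among genes with whole counts in all libraries, a restriction chosen once values were known, 5848 of 7224 and 2 of 3 passed, fewer because fewer genes were tested. With library totals all 10 passed, Cntnap1 included. The quasi-likelihood fit called 0 and 0, against a spread estimated from the same genes, so few could pass. By Pearson's r, 1 relation with a marker list passed. With library totals, a pseudocount of 5 or list medians 2 passed, as Cntnap2 joined Nfasc. By Spearman's rho, 2 passed in the main setting, those of Nfasc and Cntnap2 with the neuron score. With 5 libraries the sign-flip test cannot pass, so it was not run without a replicate, but 40 to 42 of 45 pairs kept 1 order in every library left. The coding length from a protein table was not run, and GENCODE lengths were used in its place, chosen after the data were seen.

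Without division by length, shares of the L1 family were 37.6% for L1cam, 47.6% for Chl1, 14.1% for Nrcam and 0.642% for Nfasc. They were 36.9%, 48.6%, 13.9% and 0.588% per kb of coding region, and 46.0%, 14.1% and 0.414% for L1cam, Nrcam and Nfasc per kb of the longest transcript. L1cam over Chl1 turned to -0.34 without length and -0.39 per coding region, and Nrcam over Ank3 to -0.56 without length. All of these reverse orders passed (exact permutation, adjusted p = 0.0361 each). Cntnap2 over Nfasc turned to -0.11 without length, -0.092 per coding region and -0.12 per transcript, and only the last of these passed (exact permutation, adjusted p = 0.0343). Without length, Gldn over Nrcam fell to 0.40 and no longer passed (exact permutation, adjusted p = 0.134), and Chl1 over Gldn rose to 1.37 and passed (exact permutation, adjusted p = 0.0361). The further contactins detected numbered 4 with at least 10 counts or with 3 libraries sufficing. With single replicates left out, Cntn1 over Cntnap1 ran from -0.071 to 0.27. The relations whose sign turned were those of L1cam (r from -0.320 to 0.845), Nrcam (-0.229 to 0.425), Gldn (-0.523 to 0.527) and Cadm4 (-0.744 to 0.747) with neurons, Cntnap1 with glia (-0.447 to 0.183), and Chl1 (-0.946 to 0.00731), Cntnap1 (-0.0208 to 0.270) and Gldn (-0.125 to 0.865) with fibroblasts. The relation of Chl1 with the glial score was 0.456 without replicate 5, and that of Cadm4 0.611. No paired analysis was possible because there was 1 group. The cause of these changes was not tested. All 10 genes had 152 or more counts in every library, and low depth and low expression cannot be told apart for the contactins not detected.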

Other observations

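The ranges of further genes of the 4 lists were set beside the marker sums, with the genes named here chosen after their values were seen. Sptbn4, the beta spectrin of the node, varied 2.54-fold between cultures in CPM and 1.37-fold relative to the summed neuron markers, at a mean of 3.66 CPM. Cntn2 narrowed from 3.24-fold to 1.66-fold and Cadm3 from 2.93-fold to 1.56-fold. Others widened relative to the neuron sum, Kcna1 from 1.46-fold to 1.85-fold, Adam22 from 1.89-fold to 2.54-fold and Dlg4 from 1.13-fold to 2.13-fold. Relative to the summed glial markers, Dag1 narrowed from 1.43-fold to 1.15-fold and Adgrg6, a receptor needed for Schwann cell myelination, from 1.52-fold to 1.17-fold. Kcna1 narrowed there as well, to 1.34-fold, while Adam22 and Dlg4 widened to 2.42-fold and 1.43-fold. Of the 39 detected genes of the 4 lists, 11 had a smaller coefficient of variation relative to the neuron sum than in CPM, and 22 relative to the glial sum. Of the 10 genes described above, this held for 3 and 8. These are descriptions with no test.

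The nodal matrix gene Vcan was lowest in replicate 1 (18.0 CPM) and highest in replicate 5 (347 CPM), a 19.3-fold range, and the fibroblast markers had their lowest and highest sums in the same libraries. Mag, an adhesion protein of myelin, stayed between 1.86 and 8.27 CPM. Across the 10 genes and the 3 scores of the neuron, glial and fibroblast lists, no library stood apart by the gap between an extreme value and its neighbour relative to the whole range beyond its critical value, the nearest being Chl1 in replicate 5 at 0.571. The other marker lists were not looked at in this way. Among those, replicate 5 had a myelin score of 7.34, against 7.90 to 8.12 in the other cultures. Its endothelial score was 3.24, against 0.57 to 1.40 in the others.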
